A study of Mus musculus with 12 samples.

Results

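The 38 mitosis genes described here encode cyclins, kinases, kinetochore and spindle proteins, cytokinesis factors, condensin subunits and the proliferation antigen Ki-67. They were taken by name from a table of 22552 genes, in which all 38 were found, and not by their values. The table holds FPKM (fragments scaled to transcript length and to the size of the library) in 7 columns, a single column per group, from 12 RNA sequencing libraries of C57Bl/6 mice. In cultured myoblasts, the columns were Lbr knockout (2 samples), Lmna knockout (2 samples), and a wild type from each of the Lbr and Lmna litters (1 sample each). In striated muscle they were Lbr knockout, Lmna knockout and wild type (2 samples each). Lbr encodes the lamin B receptor of the inner nuclear membrane and Lmna encodes lamins A and C of the nuclear lamina. Knockouts and wild types came from crosses of heterozygous parents, and the labels give no age, no sex and not the deleted part of either gene. Samples of a group were deposited as a single value, so no group has a replicate error and no knockout difference was tested. The only spread between libraries is that between the wild-type myoblasts of the 2 litters.

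Cells entering mitosis raise cyclin B with CDK1, whose kinase activity breaks down the nuclear envelope, including the lamina, and condenses the chromosomes. Kinetochore proteins then attach chromosomes to spindle microtubules, checkpoint kinases delay anaphase until all are attached, and the anaphase-promoting complex with CDC20 destroys cyclin B and frees separase. The chromosomal passenger complex and the central spindle complete division. These genes are transcribed mainly in late S phase, G2 and M, so that their mRNA is high in dividing cells and low in resting ones. Mature muscle fibres do not divide, and in muscle tissue such mRNA is generally attributed to other cells, which divide. In bulk RNA, fewer dividing cells and less of these mRNAs per cell cannot be told apart.

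Many mitotic promoters hold a cell cycle genes homology region, TTTGAA, often near a CCAAT box. In the RefSeq promoter table (GRCm38.p6, 250 bases before to 50 after a gene's start), 33 of the 38 genes had an entry, with 35 promoters. TTTGAA on either strand was found in 27 of the 35 (77.1%), against 17.9% of all 32851 promoters in the table, and the variant TTCGAA in 3 (8.57%, against 1.56%). CCAAT on either strand was found in 28 (80%, against 37.4%), and TTTGAA together with CCAAT in 25 (71.4%, against 6.95%). TTTGAA was not in these windows for Nuf2, Nusap1, Ncaph, Bub1, Cenpe, Melk, Birc5 and Ccnb1, and Ccna2, Aurkb, Incenp, Kif20a and Tpx2 had no entry. The promoters below belong to the members with the largest differences in Lmna-knockout muscle (Racgap1, Top2a and Cenpa), to Cdk1 and Mki67, and to Ccnb1, which has CCAAT without TTTGAA. Capitals mark matches to the homology region, to its variant and to the CCAAT box. On the opposite strand the homology region reads TTCAAA, while the CCAAT box there reads ATTGG. The variant reads alike on both strands, and none of these strings overlap in the promoters shown.

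Racgap1, chr15:99651607-99651906, minus strand: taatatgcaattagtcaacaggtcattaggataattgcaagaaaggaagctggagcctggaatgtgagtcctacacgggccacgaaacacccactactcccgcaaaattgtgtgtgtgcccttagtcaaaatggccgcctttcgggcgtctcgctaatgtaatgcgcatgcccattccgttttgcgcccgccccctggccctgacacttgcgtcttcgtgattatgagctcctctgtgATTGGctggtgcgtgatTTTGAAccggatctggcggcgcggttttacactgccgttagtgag
Top2a, chr11:99024140-99024439, minus strand: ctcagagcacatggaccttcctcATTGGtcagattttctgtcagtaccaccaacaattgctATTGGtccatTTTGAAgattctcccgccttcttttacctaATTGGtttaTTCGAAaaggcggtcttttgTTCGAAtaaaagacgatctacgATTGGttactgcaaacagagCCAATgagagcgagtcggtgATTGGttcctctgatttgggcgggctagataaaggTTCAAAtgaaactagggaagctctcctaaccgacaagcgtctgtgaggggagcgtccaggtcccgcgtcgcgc
Cenpa, chr5:30666636-30666935, plus strand: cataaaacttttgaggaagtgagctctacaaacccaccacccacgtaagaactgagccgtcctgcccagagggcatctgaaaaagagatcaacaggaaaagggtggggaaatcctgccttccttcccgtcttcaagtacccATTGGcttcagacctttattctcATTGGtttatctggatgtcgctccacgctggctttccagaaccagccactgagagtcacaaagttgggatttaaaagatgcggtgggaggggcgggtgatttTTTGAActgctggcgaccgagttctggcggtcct
Cdk1, chr10:69352863-69353162, minus strand: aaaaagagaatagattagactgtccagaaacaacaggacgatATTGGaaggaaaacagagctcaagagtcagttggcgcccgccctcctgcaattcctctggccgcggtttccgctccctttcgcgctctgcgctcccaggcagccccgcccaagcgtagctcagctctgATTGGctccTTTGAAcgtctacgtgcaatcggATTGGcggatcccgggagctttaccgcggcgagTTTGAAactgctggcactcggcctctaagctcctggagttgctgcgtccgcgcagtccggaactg
Mki67, chr7:135716330-135716629, minus strand: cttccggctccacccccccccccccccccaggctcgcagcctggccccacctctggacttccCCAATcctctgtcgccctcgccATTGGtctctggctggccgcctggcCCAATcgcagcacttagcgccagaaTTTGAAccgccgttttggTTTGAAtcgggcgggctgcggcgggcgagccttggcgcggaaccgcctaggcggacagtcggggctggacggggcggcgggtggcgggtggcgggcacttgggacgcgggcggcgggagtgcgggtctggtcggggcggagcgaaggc
Ccnb1, chr13:100786437-100786736, minus strand: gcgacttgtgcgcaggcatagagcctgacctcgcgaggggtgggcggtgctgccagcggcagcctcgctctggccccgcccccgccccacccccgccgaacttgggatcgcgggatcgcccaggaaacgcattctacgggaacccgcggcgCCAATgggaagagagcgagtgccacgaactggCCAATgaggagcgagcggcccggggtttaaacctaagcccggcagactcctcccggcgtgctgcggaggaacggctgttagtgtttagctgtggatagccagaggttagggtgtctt

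These matches describe letters in a window and show no binding. In Top2a the capitals fall at 10 matches spread over the promoter, whereas Racgap1 holds a single ATTGG followed closely by TTTGAA just past the start. The values of the same genes follow.

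The columns were first checked against their labels. Lmna stood at 18.5 FPKM in Lmna-knockout myoblasts, against 147 FPKM in their wild type, and at 22.6 FPKM in Lmna-knockout muscle, against 59.5 FPKM. Lbr was at 1.87 FPKM in Lbr-knockout muscle, against 11.8 FPKM, but at 7.71 FPKM in Lbr-knockout myoblasts, against 16.1 FPKM. The myoblast column labelled Lbr knockout thus kept Lbr signal, and the muscle column labelled Lmna knockout kept Lmna signal. In the myoblast columns the 8 markers of myoblasts and muscle progenitors summed to 34.5 to 122 FPKM, from Pax7 and Myf5 below 0.5 FPKM and Myod1 at 2.09 to 5.51 FPKM to Des at 18.7 to 85.2 FPKM. In the same columns the median of 8 fibroblast markers was 343 to 389 FPKM, and 18 macrophage and leukocyte markers summed to 1460 to 1780 FPKM in all but the Lbr-litter wild type (482 FPKM). The muscle columns had Acta1, skeletal actin, at 13887 to 17215 FPKM. Total counts are not given. As estimated from the steps between weakly expressed genes, 1 FPKM over 2 kb of transcript stood for roughly 6.28 to 8.28 fragments in the muscle columns and 23.4 to 33.1 in the myoblast columns.

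The members had far higher levels in the cultures than in muscle. Their median level was 31.1 FPKM in Lbr-knockout, 31.0 FPKM in Lmna-knockout and 32.4 and 33.3 FPKM in wild-type myoblasts of the Lbr and Lmna litters. In muscle it was 1.65 FPKM in the Lmna knockout, 2.79 FPKM in the Lbr knockout and 2.78 FPKM in the wild type. Ube2c, the ubiquitin-conjugating enzyme of the anaphase-promoting complex, was the most abundant member in all 4 myoblast columns (168 to 290 FPKM), and Espl1, separase, the least (4.81 to 5.60 FPKM). In all 3 muscle columns the most abundant was Mki67 (13.0 to 24.7 FPKM).

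**Figure D1:**
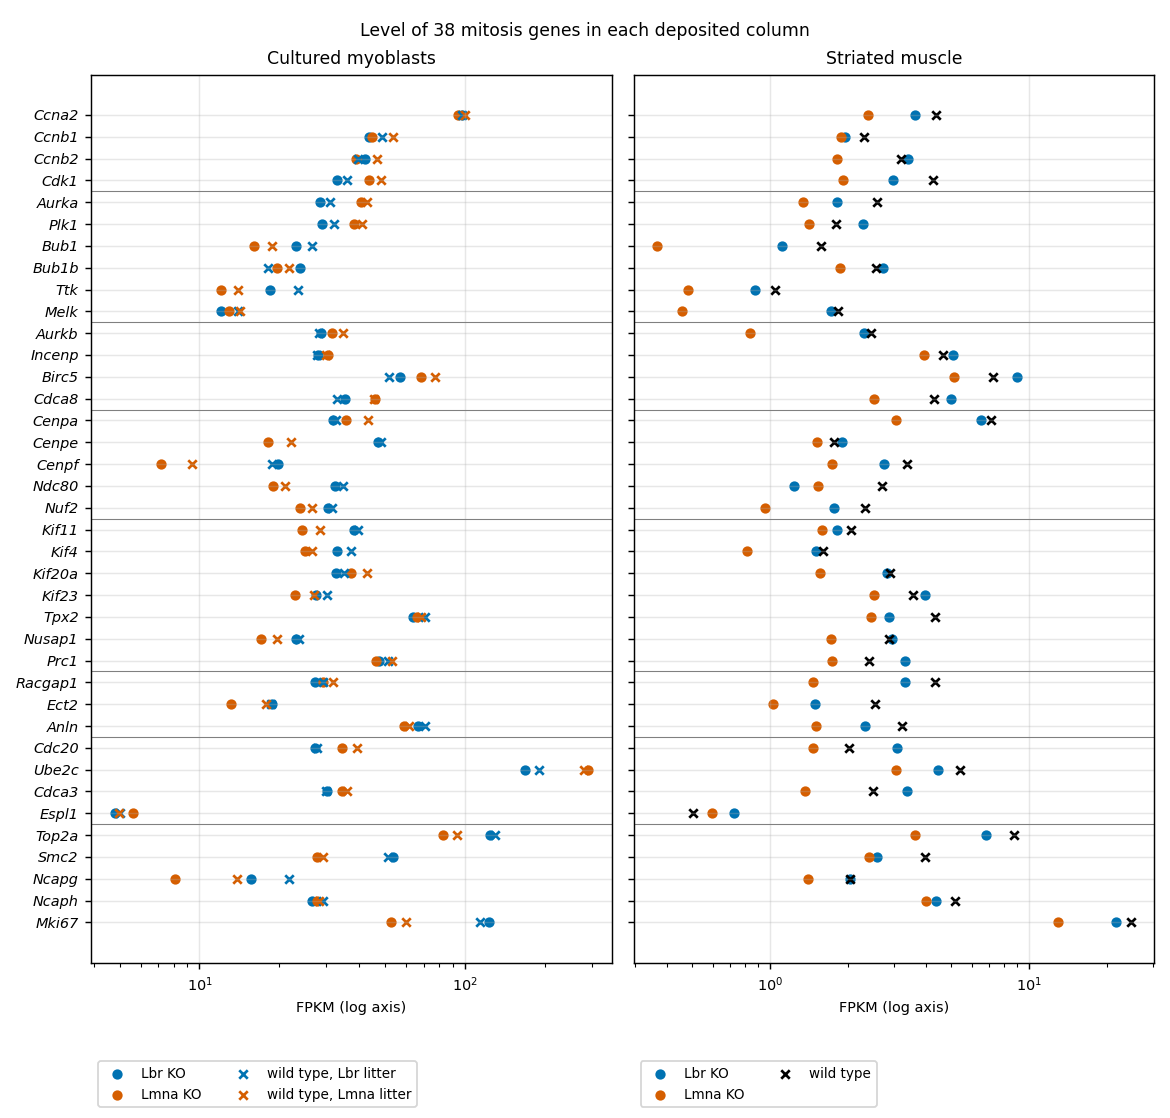
FPKM (log axis) of the 38 mitosis genes, grouped by role between grey lines, in the myoblast columns on the left and the muscle columns on the right; circles are knockouts and crosses wild types. In muscle the Lmna knockout (orange) is the lowest of the 3 columns for 36 of 38 genes, and in myoblasts the colours, which mark litters, are for most genes further apart than circles and crosses.

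In what follows, differences are those of log2(FPKM + 1), for genes that averaged 1 FPKM or more across the tissue's columns and were above 0 in each compared column. This scale understates the change of weakly expressed genes. A gene is said to have risen or fallen only if it differed by at least 2-fold, a log2 value of 1.

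In Lmna-knockout muscle the mitosis genes were lower as a group. All 36 members that passed the filter on low values lay below wild-type muscle, whereas 34.5% of all 12068 compared genes did. Their median difference was -0.58 (interquartile range -0.78 to -0.33), while that of all compared genes was 0.13. Most single differences were under 2-fold on the log2(FPKM + 1) scale. On it 2 members fell (5.56%, against 0.762% of all genes), Racgap1 and Top2a, and 17 were at least 1.5-fold lower (47.2%, against 3.3%). On the same scale Cenpa lay just short of 2-fold (-1.0 when rounded), and 0 members rose (1.93% of all genes). With a pseudocount of 0.1 in place of 1, 10 members were past 2-fold, and with 5 the number was 0. Centring on the median of all genes gave 7 members at 2-fold or more and quantile normalization gave 6. In FPKM without a pseudocount, the median member stood at 56.4% of its wild-type level.

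Racgap1, a GTPase-activating protein of the central spindle, had 1.46 FPKM in Lmna-knockout muscle, 3.31 FPKM in Lbr-knockout muscle and 4.32 FPKM in wild-type muscle. Its difference of -1.11 in the Lmna knockout was the largest of any member, and the Lbr knockout lay between the other columns (-0.30). Ect2, the exchange factor for RhoA that RACGAP1 activates in cytokinesis, stood at 1.02, 1.5 and 2.54 FPKM in Lmna-knockout, Lbr-knockout and wild-type muscle (-0.81 and -0.50 in the knockouts). Anln, the actin-binding anillin of the cleavage furrow, was at 1.51, 2.32 and 3.22 FPKM in the same order. All 3 cytokinesis regulators were thus lowest in the Lmna knockout and highest in the wild type.

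Top2a, the topoisomerase that untangles sister chromatids, had 3.62 FPKM in Lmna-knockout, 6.80 FPKM in Lbr-knockout and 8.76 FPKM in wild-type muscle, a difference of -1.08 for the Lmna knockout and -0.32 for the Lbr knockout. Mki67, whose product coats mitotic chromosomes, had 13.0 FPKM in Lmna-knockout, 21.7 FPKM in Lbr-knockout and 24.7 FPKM in wild-type muscle (-0.88 and -0.18). It is the member best supported by reads in muscle, at an estimated 410 fragments in the Lmna knockout and 1029 in the wild type. The condensin genes were nearer to wild type in the Lmna knockout, at -0.54 for Smc2, -0.33 for Ncapg and -0.30 for Ncaph.

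Cenpa, the histone H3 variant of centromeres, had 3.07 FPKM in Lmna-knockout, 6.54 FPKM in Lbr-knockout and 7.14 FPKM in wild-type muscle. The kinetochore genes Nuf2 and Cenpf were at -0.77 and -0.68 in the Lmna knockout. Cenpe, the kinetochore motor CENP-E, had the smallest difference of any member that passed the filter, with 1.51 FPKM in the Lmna knockout, 1.89 FPKM in the Lbr knockout and 1.77 FPKM in the wild type. On the log2(FPKM + 1) scale these genes therefore ran from -0.998 (Cenpa) to -0.139 (Cenpe). In FPKM without a pseudocount, Cenpa stood at 43.1% of wild type and Cenpe at 85.6%. Ndc80, which binds microtubules at the outer kinetochore, was the only compared member with a lower level in the Lbr knockout than in the Lmna knockout, with 1.53 FPKM in the Lmna knockout, 1.23 FPKM in the Lbr knockout and 2.70 FPKM in the wild type.

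Among kinases, Melk had 0.455 FPKM in Lmna-knockout, 1.71 FPKM in Lbr-knockout and 1.83 FPKM in wild-type muscle (-0.96 in the Lmna knockout). Bub1, the checkpoint kinase, had 0.367, 1.11 and 1.57 FPKM in the same order (-0.91). Its remaining level was the lowest of any member, 23.3% of wild type, and rests on an estimated 4 fragments. Aurkb, the kinase of the chromosomal passenger complex, had 0.834 FPKM in Lmna-knockout, 2.31 FPKM in Lbr-knockout and 2.46 FPKM in wild-type muscle (-0.91). In the Lmna knockout Aurkb and Melk too rest on few reads, an estimated 5 and 4 fragments. The partners of Aurkb were less reduced, with Cdca8 (borealin) at -0.58, Birc5 (survivin) at -0.43 and Incenp at -0.19. Plk1, polo-like kinase 1, and Bub1b, the checkpoint protein BUBR1, were at -0.21 and -0.32.

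Cdk1 had 1.91 FPKM in Lmna-knockout, 2.99 FPKM in Lbr-knockout and 4.27 FPKM in wild-type muscle, with differences of -0.86 and -0.40 for the knockouts. Its cyclin partners did not move equally: Ccna2 was at -0.67 and Ccnb2 at -0.58 in the Lmna knockout, but Ccnb1 only at -0.20, with 1.88, 1.94 and 2.30 FPKM in Lmna-knockout, Lbr-knockout and wild-type muscle. The 7 spindle motors and microtubule-binding proteins lay between -0.63 (Tpx2, an activator of Aurora A) and -0.24 (Kif11, the kinesin that separates spindle poles), with the kinesin genes Kif20a at -0.62, Kif4 at -0.52 and Kif23 at -0.37. Aurka itself was at -0.62. Of the genes for ubiquitination, Ube2c was at -0.65, Cdca3 at -0.56 and Cdc20 at -0.29. The filter left out Ttk, the checkpoint kinase MPS1 (0.483 FPKM in Lmna-knockout, 0.873 in Lbr-knockout and 1.04 in wild-type muscle), and Espl1 (0.595, 0.728 and 0.505 FPKM in the same order), the only member with a higher level in the Lmna knockout than in wild type.

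**Figure D2:**
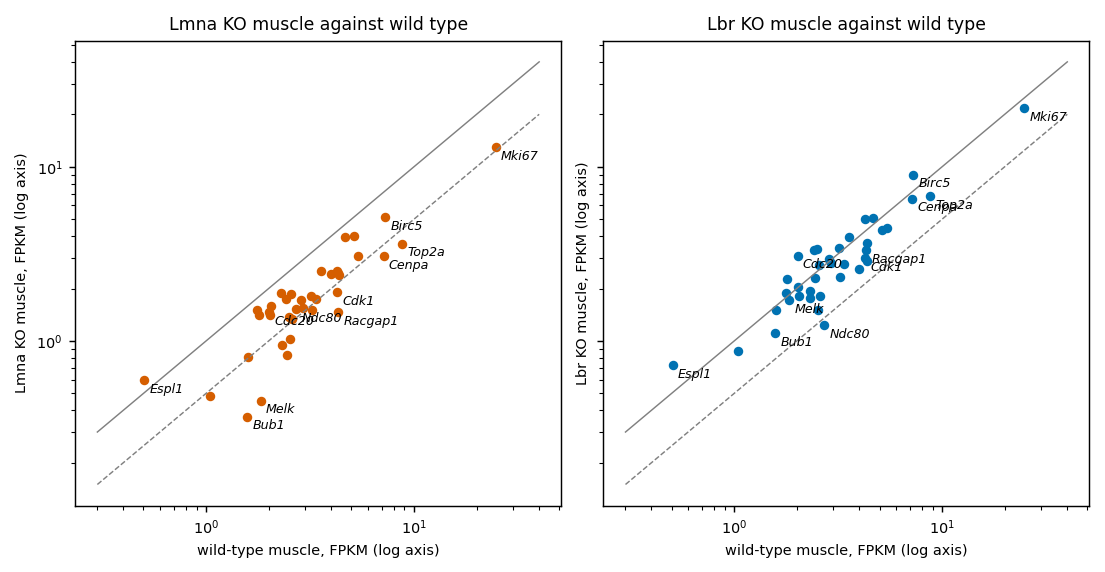
FPKM of the 38 mitosis genes in Lmna-knockout muscle (left) and Lbr-knockout muscle (right) against wild-type muscle, on log axes; the solid line is equality and the dashed line a level 2-fold below. In the Lmna knockout 37 of 38 genes lie below equality, Espl1 being the exception, whereas the Lbr knockout scatters around it.

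In Lbr-knockout muscle the members were nearer to the wild type than in the Lmna knockout. Of the 36 compared, 0 rose and 0 fell on the log2(FPKM + 1) scale, and few of all 12080 genes did (1.3% and 0.265%). In FPKM without a pseudocount, members ran from 45.6% (Ndc80) to 153% (Cdc20) of wild type. With 13 higher and 23 lower (63.9%, against 33.4% of all genes), the median difference was -0.11 beside 0.10 over all genes. Centring on the median of all genes gave a median of -0.214 with 28 lower, and quantile normalization gave -0.232 with 30 lower. These scalings left 0 members past 2-fold. Without such scaling, the largest differences were those of Ndc80 (-0.73), Ect2 (-0.50), Smc2 (-0.47, with 2.59 FPKM in the Lbr knockout against 3.97 FPKM in the wild type) and Tpx2 (-0.46, with 2.87 against 4.33 FPKM). In the other direction were Cdc20, the activator of the anaphase-promoting complex (0.44, with 3.08 FPKM in the Lbr knockout against 2.02 FPKM in the wild type), and the central spindle gene Prc1 (0.34). The muscle knockouts were compared with the same wild-type column, so their differences are not independent.

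The knockout muscle columns were therefore also set directly against each other, without the wild type. Of 36 members, 35 were lower in the Lmna knockout than in the Lbr knockout (97.2%, against 47.3% of 12069 genes), with a median of -0.46, beside 0.02 over all genes. On the log2(FPKM + 1) scale 0 members differed by 2-fold between these columns (1.49% of all genes did). On it 13 were at least 1.5-fold lower (36.1%, against 3.58%). In FPKM without a pseudocount some differed by more than 2-fold, such as Melk (0.455 FPKM in the Lmna knockout, 1.71 FPKM in the Lbr knockout). Ndc80 was the exception (0.18), and the lowest values were those of Melk (-0.90), Cdca3 and Cenpa (both -0.89).

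**Figure D3:**
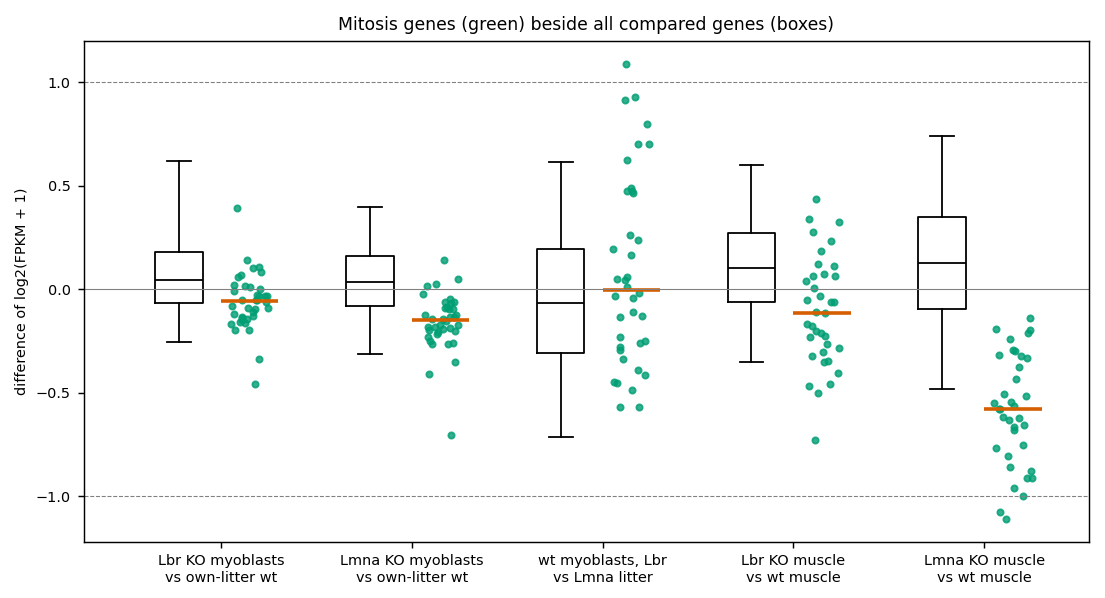
Difference of log2(FPKM + 1) for the mitosis genes (green points, median in orange) beside all compared genes (boxes: quartiles and median, whiskers from the 5th to the 95th percentile) in each comparison; dashed lines mark 2-fold. The members' median is -0.58 in Lmna-knockout muscle, and between the wild-type myoblasts the members run from -0.57 to 1.09.

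Other genes of the cell cycle were compared in the same muscle columns. Of 60 further mitosis genes, 41 passed the filter, 34 of them lower and 7 higher in the Lmna knockout, with a median of -0.32 (-0.08 in the Lbr knockout). Here 2 fell: Pbk, a mitotic kinase gene (2.24 FPKM in the Lmna knockout, 4.56 in the Lbr knockout and 7.84 in the wild type, -1.45), and Fam64a (1.19, 2.76 and 4.09 FPKM in the same order, -1.22). Of 23 S phase genes, which license and copy DNA, 19 were lower in the Lmna knockout with a median of -0.40 (-0.03 in the Lbr knockout), and 1 fell, Gins1 of the replicative helicase (1.03 FPKM in the Lmna knockout, 1.41 in the Lbr knockout and 3.08 in the wild type, just past 2-fold).

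Lists that are less tied to division lay near 0. In the Lmna knockout the median was -0.02 for 14 genes of the anaphase-promoting complex, including its inhibitor Fbxo5, and -0.04 for 9 G1 cyclins and kinases. It was 0.06 for 16 transcription regulators of the cell cycle, of which only Nfyb, a subunit of the CCAAT-binding factor NF-Y, rose (14.9 FPKM in the Lmna knockout, 7.47 in the Lbr knockout and 6.74 in the wild type, 1.04). Among 13 cell cycle inhibitors and pocket proteins (median 0.15), 1 rose: Cdkn1a, encoding the kinase inhibitor p21, had 22.1 FPKM in Lmna-knockout, 7.76 FPKM in Lbr-knockout and 4.33 FPKM in wild-type muscle, a difference of 2.12 in the Lmna knockout and 0.72 in the Lbr knockout.

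Markers of other cells were read in the same columns. Of all genes, 34.5% were lower in the Lmna knockout and 33.4% in the Lbr knockout, so most were higher (medians 0.13 and 0.10). Of all genes 1.93% rose in the Lmna knockout and 1.3% in the Lbr knockout. Muscle progenitor markers had a median of 0.00 in the Lmna knockout (8 genes, 4 higher and 4 lower). They summed to 966 FPKM in the Lmna knockout, 851 in the Lbr knockout and 786 in the wild type. Most of each sum was Des (909, 792 and 731 FPKM in the same order). Pax7 (-0.25), Myod1 (-0.13) and Myf5 (-0.02) were among the 4 lower in the Lmna knockout. Macrophage and leukocyte markers were higher in both knockouts: 15 of 16 in the Lmna knockout (median 0.41, 3 rose) and 14 of 16 in the Lbr knockout (median 0.62, 4 rose), with summed levels of 217, 241 and 155 FPKM in Lmna-knockout, Lbr-knockout and wild-type muscle. All 11 compared B and T cell markers were also higher in both (medians 1.11 and 1.26), with none of the 12 listed at 0 in muscle and sums of 46.9, 70.6 and 15.7 FPKM. Their wild-type median was 0.803 FPKM, so some, such as Cd37 (0.584 FPKM), passed the filter only through the knockout columns. For those a higher value was partly fixed in advance, whereas the sums do not depend on the filter. Of 6 compared granulocyte precursor markers, 6 were higher in the Lmna knockout (median 1.32, 3 rose) and 5 in the Lbr knockout (median 0.50, 2 rose). Their sums were 213, 161 and 65.9 FPKM in Lmna-knockout, Lbr-knockout and wild-type muscle, with Ctsg listed at 0 in the Lbr knockout. Schwann cell markers had medians of 0.41 (6 of 7 higher, 0 rose) in the Lmna knockout and 0.83 (7 of 7 higher, 2 rose) in the Lbr knockout, with sums of 594, 961 and 459 FPKM in the same order of columns. The 4 compared erythroid markers had medians of 0.21 and -0.60, the 8 fibroblast markers -0.05 and -0.11, and the 14 genes of differentiated muscle -0.31 and -0.06, each given for the Lmna knockout and then the Lbr knockout. The part of these cells in the mitosis gene values was not tested.

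**Figure D4:**
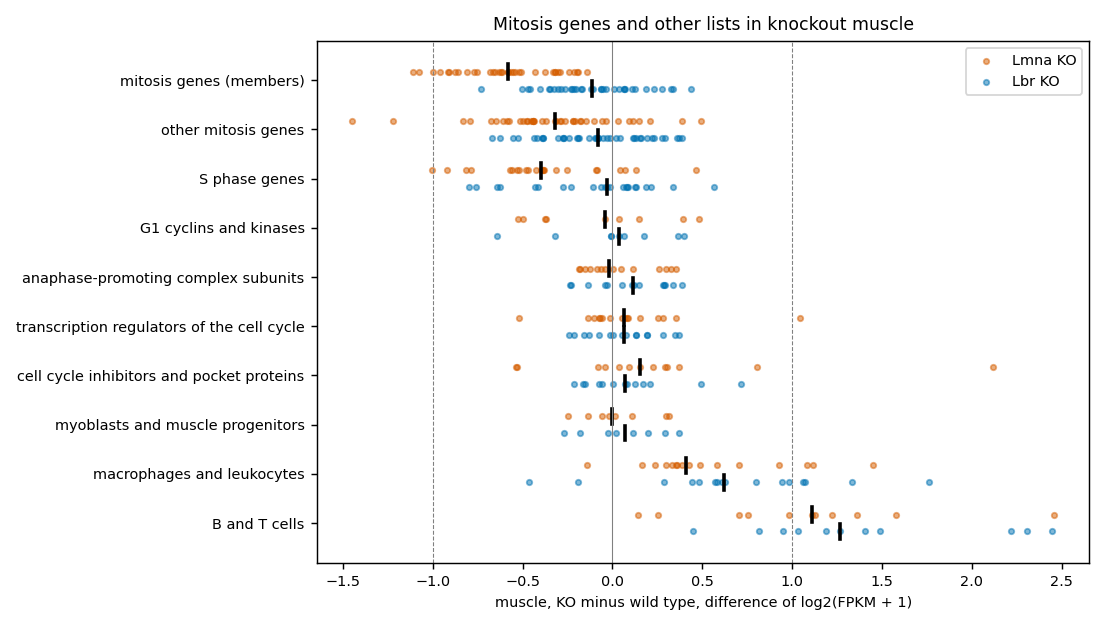
Difference of log2(FPKM + 1) from wild-type muscle for single genes (points) and list medians (black bars) in the Lmna knockout (orange, upper row of each pair) and the Lbr knockout (blue, lower row); dashed lines mark 2-fold. Mitosis and S phase genes lie left of 0 in the Lmna knockout, with medians of -0.58 and -0.40, and the isolated point at 2.12 is Cdkn1a.

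In myoblasts no mitosis gene differed by 2-fold from its own litter's wild type in either knockout, and few genes of the whole table did. In the Lbr knockout 0 of 38 rose and 0 fell (background 2.48% and 0.122% of 11463 genes). Of the members, 27 were lower and 11 higher (71.1% lower, against 39.1% of all genes), with a median of -0.06 beside 0.05 over all genes. In the Lmna knockout 0 of 38 rose and 0 fell (background 0.602% in each direction of 11462 genes), and 34 were lower (89.5%, against 41.9%), with a median of -0.15 beside 0.04.

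These differences were mostly smaller than those between the wild-type libraries. The knockout columns differed from each other much as the wild types did (Pearson r 0.94 across members). The spread between wild types therefore does not measure the error of a difference within a litter. The median size of a member's difference, in either direction, was 0.09 in the Lbr knockout and 0.15 in the Lmna knockout, but 0.32 between the wild types. For 31 of 38 members in the Lbr knockout and 28 of 38 in the Lmna knockout, the knockout differed from its own wild type by less than the wild types differed from each other. Of the 38, 15 lay below both wild types and 5 above both in the Lbr knockout, and 23 below and 4 above in the Lmna knockout. For these counts and those against the spread of the wild types, the share of all genes was not calculated. They therefore describe the members only and do not set them apart from other genes. Against the other litter's wild type, 21 of 38 were lower in the Lbr knockout (51.4% of all genes) and 23 in the Lmna knockout (40.9% of all genes).

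Ncapg, a condensin subunit, had the most negative difference of any member in both knockout cultures. It had 15.6 FPKM in Lbr-knockout myoblasts against 21.8 FPKM in their wild type (-0.46). In Lmna-knockout myoblasts it had 8.06 FPKM, against 13.8 FPKM in their own wild type (-0.71). The Lmna-knockout value lay below both wild types and the Lbr-knockout value between them. Bub1b had 24.0 FPKM in Lbr-knockout myoblasts, above 18.1 FPKM in their wild type (0.39), and 19.6 FPKM in Lmna-knockout myoblasts against 21.7 FPKM. Ttk was at 18.3 FPKM against 23.4 FPKM in the Lbr pair (-0.34) and 12.0 FPKM against 14.0 FPKM in the Lmna pair (-0.20), where the knockout had the lower level in each. Bub1 (23.1 FPKM in the Lbr knockout against 26.6 FPKM, and 16.0 FPKM in the Lmna knockout against 18.7 FPKM) and Melk (12.1 against 14.0 FPKM, and 13.0 against 14.2 FPKM) were lower than their own wild type by 0.12 to 0.21.

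In the Lmna knockout, Ect2 followed Ncapg, with 13.2 FPKM against 17.8 FPKM in the wild type (-0.41), and it differed by less than 0.01 in the Lbr pair (18.7 FPKM in both). Cenpe was at 18.1 FPKM against 22 FPKM (-0.27), Cenpf at 7.16 FPKM against 9.40 FPKM (-0.35) and Cenpa at 35.5 FPKM against 43.0 FPKM (-0.27), while in the Lbr knockout Cenpe had 46.9 FPKM against 48.0 FPKM, Cenpf 19.8 FPKM against 18.8 FPKM and Cenpa 31.9 FPKM against 32.6 FPKM. In culture Aurkb had 28.6 FPKM in the Lbr knockout against 28.2 FPKM, and 31.6 FPKM in the Lmna knockout against 34.8 FPKM. Of the genes that led the muscle comparison of the Lbr knockout, Ndc80 had 32.4 FPKM in Lbr-knockout myoblasts against 34.6 FPKM, and 18.8 FPKM in Lmna-knockout myoblasts against 20.9 FPKM. Tpx2 had 63.7 FPKM against 70.6 FPKM in the Lbr pair and 65.9 FPKM against 68.3 FPKM in the Lmna pair, and Cdc20 27.2 FPKM against 27.8 FPKM and 34.4 FPKM against 39.3 FPKM in the same pairs, all lower in the knockout. The 5 members with the largest differences in Lmna-knockout muscle were at -0.27 (Cenpa), -0.17 (Top2a), -0.13 (Aurkb), -0.12 (Racgap1) and -0.12 (Melk) in Lmna-knockout myoblasts. Racgap1 had 29.2 FPKM in the Lmna knockout against 31.9 FPKM, Top2a 82.4 FPKM against 93.0 FPKM, Mki67 52.5 FPKM against 59.7 FPKM, and Cdk1 43.4 FPKM against 48.3 FPKM. In the Lbr pair, Racgap1 had 27.3 FPKM in the knockout against 29.1 FPKM, Top2a 124 FPKM against 130 FPKM, Mki67 122 FPKM against 113 FPKM and Cdk1 32.9 FPKM against 36.0 FPKM. Ccnb1 was at 43.4 FPKM against 48.5 FPKM in the Lbr pair and at 44.7 FPKM against 53.4 FPKM in the Lmna pair. The difference between the effects in muscle and in culture was not tested.

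Other cell cycle lists were read in the cultures. The 60 further mitosis genes had medians of -0.04 in the Lbr knockout and -0.14 in the Lmna knockout, with 0 past 2-fold in either, and the 26 S phase genes 0.11 and 0.01, again with 0 past 2-fold. Single genes of other lists differed more, and 1 inhibitor, Cdkn1c, rose in the Lbr knockout (1.42). In the same comparisons, the progenitor markers had medians of 0.91 (2 of 5 rose) in the Lbr knockout and -0.78 (2 of 5 fell) in the Lmna knockout. Genes of differentiated muscle had medians of 1.51 (9 of 9 rose) in the Lbr knockout and -2.08 (7 of 8 fell) in the Lmna knockout. All 18 macrophage and leukocyte markers rose against the own wild type in the Lbr knockout (median 1.80) and 0 changed in the Lmna knockout (median -0.33). Their part in the mitosis gene values was not tested.

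The wild-type myoblasts of the Lbr and Lmna litters differed more. Of 38 members 19 were higher and 19 lower in the Lbr litter (57.5% of all genes were lower), so the median was 0.00, but the values ran from -0.57 (Ube2c) to 1.09 (Cenpe). A single member, Cenpe, was 2-fold higher and 0 were 2-fold lower (background 0.687% and 2.03% of 11504 genes). Cenpe had 48.0 FPKM in the Lbr-litter wild type against 22 FPKM in the Lmna-litter wild type. Cenpf had 18.8 FPKM against 9.40 FPKM (0.93), Mki67 113 FPKM against 59.7 FPKM (0.92) and Smc2 51.4 FPKM against 29.1 FPKM (0.80) in the same order. Ube2c had 189 FPKM against 281 FPKM, Birc5 51.6 FPKM against 77.0 FPKM, Cdc20 27.8 FPKM against 39.3 FPKM and Aurka, Aurora kinase A, 31.1 FPKM against 42.9 FPKM.

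The genes higher in the Lbr litter tended to have long transcripts. Across the 38 members the difference between wild types rose with the length of the longest coding transcript (Pearson r 0.69 on log2 length, Spearman rho 0.65), as it did across 10143 genes of the table (rho 0.45). Of the 12 members over 4 kb, 11 were higher in the Lbr litter (median 0.47), and of the 12 under 2.5 kb 10 were lower (median -0.32). The knockout columns, which share no library with the wild types, showed the same ordering: Lbr minus Lmna knockout had a median of 0.53 for the long members (9 of 12 higher) and -0.17 for the short ones (9 of 12 lower). Across the 38 members the difference between knockouts and that between wild types had a Pearson r of 0.94 (rho 0.93). These are descriptions across genes that share libraries and length, and genes are not independent replicates. Between the knockouts, Cenpf was at 1.35, Cenpe at 1.32 and Mki67 at 1.21, the 3 members at least 2-fold higher in the Lbr knockout (background 2.02%). In the other direction 0 were 2-fold lower (background 1.32%), and Ube2c was lowest at -0.78.

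Within litters this relation to length was weak for the members (r 0.09 in the Lbr pair and -0.13 in the Lmna pair), and in muscle r was -0.02 for the Lmna knockout and -0.26 for the Lbr knockout. The labels name no batch, and litter, culture and library cannot be told apart in these columns. Comparing a knockout with the other litter's wild type brought this difference in: 2 members then rose in the Lbr knockout, Cenpe (1.06) and Mki67 (1.02), and 0 fell (background 1.56% and 0.541%). In the Lmna knockout 4 fell, Cenpe (-1.36), Ncapg (-1.33), Cenpf (-1.28) and Mki67 (-1.10), and 0 rose (background 1.13% and 3.39%).

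**Figure D5:**
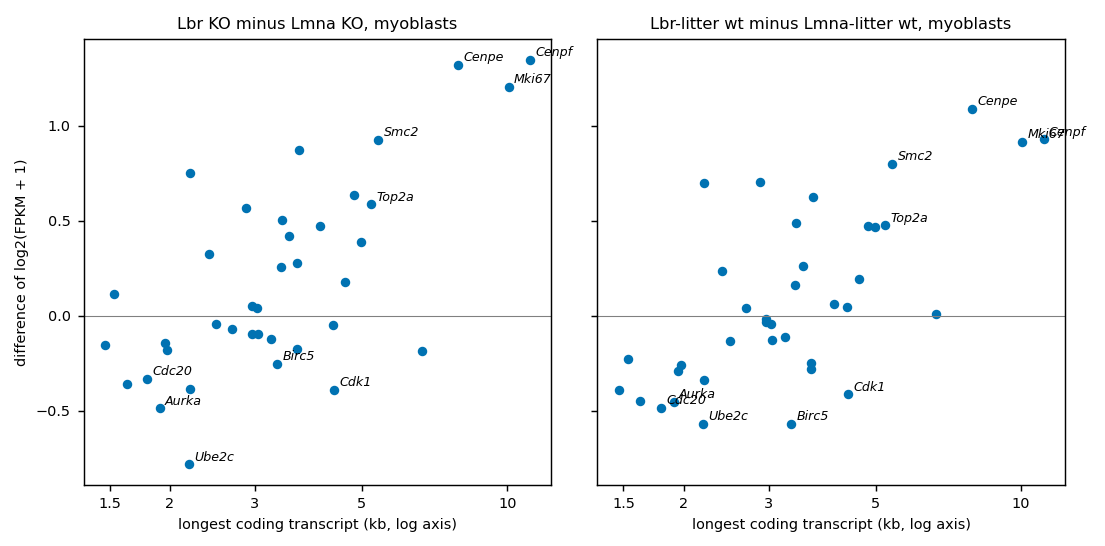
Difference of log2(FPKM + 1) between myoblast columns against the length of the longest coding transcript (kb, log axis) for the 38 mitosis genes, for the knockouts (Lbr minus Lmna, left) and the wild types (Lbr litter minus Lmna litter, right). Both panels rise with length, from Ube2c at -0.78 and -0.57 to Cenpe at 1.32 and 1.09.

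Wild-type muscle was set against wild-type myoblasts to place these levels. All 38 members were lower in muscle than in both wild-type cultures (64.6% of all genes were lower than their mean), and all 38 were at least 2-fold lower, as were 36.5% of 12145 genes, with a median of -3.18 beside -0.55 over all genes. By the labels' sample numbering the library kits differed between the tissues, so that tissue and kit cannot be told apart. The mean FPKM of the wild-type cultures exceeded that of muscle by a median of 12.6-fold, from 3.51-fold for Mki67 to 43.5-fold for Ube2c. Ube2c had 5.40 FPKM in muscle, against 189 and 281 FPKM in the Lbr-litter and Lmna-litter cultures, and Mki67 24.7 FPKM, against 113 and 59.7 FPKM. Beside Mki67, the genes Cenpf (4.17-fold), Cenpa (5.29-fold), Ncaph (5.56-fold) and Incenp (6.22-fold) differed least, and Ccna2, Ccnb1 and Prc1 (21.6-fold to 22.6-fold) followed Ube2c. Across members, muscle and culture levels on the log2 scale had a Pearson r of 0.63 (rho 0.54).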

How the data were processed

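The labels describe total RNA from 12 samples, with the NuGEN Ovation kit for the samples numbered first (by listed order the myoblasts) and the NuGEN complete protocol for the rest (muscle). The deposited values are FPKM calculated by the authors, with a single column per group. The submitters' processing notes list the build mm9. Not given in the sources used here are the aligner, the quantification, the gene models and how samples of a group were combined. The number of columns left without a group was 0.

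Differences of log2(FPKM + 1), knockout minus wild type, were calculated in Python 3.11.15 (pandas 2.3.3, numpy 2.4.6) for genes averaging 1 FPKM or more and above 0 in each compared column. With a column per group there is no test, and 2-fold took the place of a threshold. The planned tests over samples could not be fitted. The arithmetic was tested on simulated data with 200 changed genes. Depth was estimated from how FPKM multiplied by length piles up at low values in 3009 genes with a single transcript (GENCODE M21, used for lengths only, since its build differs). The estimate was weak for Lmna-knockout muscle. Promoters are RefSeq's, on GRCm38.p6.

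Members and lists were chosen with earlier results of these data known. The rule named Mki67, Top2a, Cdk1 and Ccnb1, members past 2-fold, the 5 largest differences per knockout comparison, and up to 4 genes past 2-fold per other list. Other members are named by role, after their values were seen. Alternatives were other pseudocounts, filters, scalings, wild types and thresholds.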

Additional observations from a re-analysis of the deposited data

How the results depend on the processing

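No paired analysis was possible because samples of a group share a single column. For that reason no knockout or muscle sample was left out; without either wild-type culture, the tissue median was -3.179 to -3.094 and all 38 members stayed past 2-fold. Of 153 values under alternatives, 129 stayed within the tolerance and 24 moved. The tolerance was 0.223 on the log2 scale, the median SD of a member between wild types, or 1.5 times for a count. That spread is not the error of a difference within a litter or in muscle, so the tolerance only sorts shifts by size. Changes of sign were not scored separately. The cause of these moves was not tested. In Lmna-knockout muscle, the number of members past 2-fold was 10 with a pseudocount of 0.1, 0 with 5, 7 with centring, 6 with quantile normalization, 17 at 1.5-fold and 0 against Lbr-knockout muscle. The median was -0.274 with a pseudocount of 5. A filter at 5 FPKM left 4 members there, 4 lower and 1 past 2-fold, with a median of -0.938. In Lbr-knockout muscle 1 member was past 2-fold with a pseudocount of 0.1, 1 at 1.5-fold, and 3 of 4 were lower with the filter at 5 FPKM. In Lbr-knockout myoblasts 2 passed 2-fold against the other wild type. In Lmna-knockout myoblasts 4 did, 1 against the mean of both wild types, and 1 passed 1.5-fold. Between wild-type cultures 0 passed with a pseudocount of 5, 2 with quantile normalization and 7 at 1.5-fold. The tissue median was -3.602 and -2.288 with pseudocounts of 0.1 and 5, -2.631 with centring and -2.846 with quantile normalization. The number lower and the use of Lbr-knockout muscle in place of wild type were chosen after seeing the data. Depth also limits the muscle values, where members had a median of 16 estimated fragments in the Lmna knockout and 41.5 in the wild type.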

Other observations

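Regulators of the same genes were read in all columns. Foxm1, which activates G2 and M phase genes, had 1.44 FPKM in Lmna-knockout, 2.63 FPKM in Lbr-knockout and 2.5 FPKM in wild-type muscle, and in myoblasts 36.8 FPKM in the Lbr knockout against 41.9 FPKM in its wild type and 47.6 FPKM in the Lmna knockout against 43.5 FPKM in its own. E2f1 stood at 1.28, 2.05 and 1.51 FPKM in Lmna-knockout, Lbr-knockout and wild-type muscle, and E2f4, a repressor of these genes in resting cells, at 9.25, 8.10 and 9.76 FPKM in the same order. None of these differed by 2-fold in muscle.
Cdkn1c, which encodes the kinase inhibitor p57, was the only inhibitor of the list past 2-fold in a culture against its own litter's wild type. Its difference was 1.42 in Lbr-knockout myoblasts against their own wild type, but the wild types differed by -1.09 (Lbr litter minus Lmna litter). Cdkn1a, the inhibitor that rose in Lmna-knockout muscle, had 412 FPKM in Lmna-knockout myoblasts against 374 FPKM in their wild type and 232 FPKM in Lbr-knockout myoblasts against 205 FPKM in theirs.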
